A study of Arabidopsis with 8 samples.

Results

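The shoot part of 5-day-old Arabidopsis thaliana seedlings that overexpress SAUR41 (OE-SAUR41, genotype given as SAUR41 overexpression) was set against the shoot part of Col-0 seedlings of the same age. Libraries were assigned by sample title, and the comparison took in 4 of the 8 libraries of the study: 2 OE-SAUR41 shoot libraries and 2 Col-0 shoot libraries. The other 4 libraries were 2 of OE-SAUR41 roots and 2 of Col-0 roots, which served here for comparison. No source used here gives the promoter that drives SAUR41, the number of transgenic lines or the number of seedlings pooled per library. Nor do the labels state whether replicate libraries are of separately grown seedlings. The p-values therefore measure only how far these samples spread, and part of that may be technical. Values are FPKM (fragments per kilobase of transcript, scaled to the mapped fragments of the library). A gene that a library did not list was taken as 0.

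SAUR proteins are small plant proteins first known from transcripts that accumulate quickly after auxin is given. Several of them are known to inhibit D-clade PP2C phosphatases, which otherwise dephosphorylate and quieten plasma membrane proton pumps. A more active pump acidifies the cell wall, and wall-loosening proteins such as expansins and xyloglucan endotransglucosylases/hydrolases (XTHs) then let the cell expand. SAUR41 belongs to a small subfamily with SAUR40, SAUR71 and SAUR72.

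The shoot label held in all 4 libraries. The 10 markers of green tissue summed to 57375 and 56691 FPKM in OE-SAUR41 shoots and to 34151 and 63068 FPKM in Col-0 shoots, against 136 to 202 FPKM in the 4 root libraries. The shoot libraries listed 19573 and 19824 genes in OE-SAUR41 and 21722 and 20851 in Col-0. The files give FPKM without counts, so read depth is unknown. Tested were the 15683 genes that reached 1 FPKM in 2 or more of the 4 shoot libraries.

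The Col-0 shoot libraries were far less alike than the OE-SAUR41 shoot libraries. Distances were taken as log2(FPKM + 1), a scale on which the change of low genes is understated. By it, 308 genes (1.964%) were at least 2-fold apart between the OE-SAUR41 libraries, and 4678 genes (29.83%) between the Col-0 libraries. The difference between the Col-0 libraries followed gene length. Across 13161 genes that share their locus with no other gene, Spearman's rho with the gene's span was -0.02 for OE-SAUR41 shoot 1 minus 2, and 0.625 for Col-0 shoot 1 minus 2 (a description across genes, which are not independent). In the shortest eighth of genes, of median span 786.5 bp, the OE-SAUR41 mean stood 0.00 log2 units from Col-0 shoot 1 and -0.28 from Col-0 shoot 2. In the longest eighth, of median span 4892 bp, the medians were -1.34 and 0.11. The median over all tested genes was -0.60 against Col-0 shoot 1, -0.05 against Col-0 shoot 2 and -0.34 against their mean. Each gene is therefore given against both Col-0 libraries, and a list's median is set beside -0.34.

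**Figure D1:**
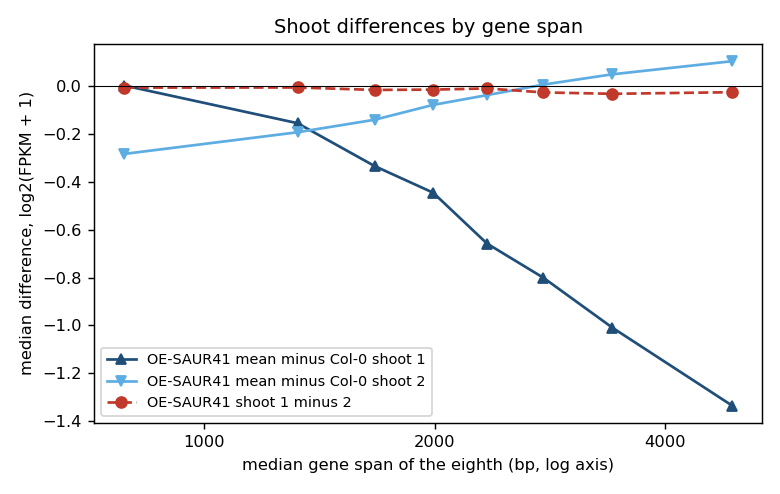
Median difference in log2(FPKM + 1) of OE-SAUR41 shoots (mean of 2 libraries) from each Col-0 shoot library, and between the OE-SAUR41 libraries, for 8 equal groups of genes ordered by gene span (log axis, bp). The difference from Col-0 shoot 1 reaches -1.34 in the longest genes, the difference from Col-0 shoot 2 goes the other way to 0.11, and the difference between the OE-SAUR41 libraries stays near 0.

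SAUR41 itself (AT1G16510, TAIR10 chromosome 1, 5644572 to 5645443) had 10675 and 10248 FPKM in OE-SAUR41 shoots, against 4.93 and 8.29 FPKM in Col-0 shoots. The mean was 10461 ± 302 FPKM in OE-SAUR41 and 6.61 ± 2.37 FPKM in Col-0 (SD, n = 2 each), a ratio of 1582. Its log2 fold change was 10.46 ± 0.33 (SE), with an adjusted p of 2.2e-05. The adjusted p-values are from limma, fitted to all 8 libraries and adjusted over the 15683 tested genes by the Benjamini-Hochberg method. SAUR41 was also called with the 4 shoot libraries alone (adjusted p = 6.35e-05).

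The closest relatives of SAUR41 lay the other way, and neither passed the test. SAUR72 (AT3G12830) had 3.21 and 2.35 FPKM in OE-SAUR41 shoots and 9.47 and 16.4 FPKM in Col-0 shoots, a log2 fold change of -1.84 with an adjusted p of 0.0947. Both OE-SAUR41 libraries were more than 2-fold below both Col-0 libraries. SAUR71 (AT1G56150) had 2.55 and 3.74 FPKM in OE-SAUR41 and 5.71 and 9.04 FPKM in Col-0, again with no overlap (log2 fold change -0.999, adjusted p = 0.247). SAUR40 was listed in no shoot library.

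Apart from SAUR41, few shoot genes stood clear of both Col-0 libraries. By limma 19 genes (0.121% of those tested) had an adjusted p under 0.05, of which 8 (0.051%) were higher and 11 (0.0701%) lower in OE-SAUR41. An unadjusted p under 0.05 was found for 2514 genes. As a second description, with no test, a gene was counted where both OE-SAUR41 libraries lay at least 1 log2 unit beyond both Col-0 libraries. There were 43 such genes above (0.274%) and 116 below (0.74%), and all 19 called genes were among them. Of those above, 5 had reached 1 FPKM in OE-SAUR41 libraries only, and of those below 27 in Col-0 libraries only, so the filter fixed their direction. Groups that merely did not overlap were common: 1307 genes (8.33%) were higher and 5313 (33.9%) lower in both OE-SAUR41 libraries than in both Col-0 libraries.

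Neither count is firm. With the 4 shoot libraries alone, SAUR41 was the single call, and the same count of 1 was found with library weights or after leaving out any 1 root or OE-SAUR41 library. The calls numbered 452 when Col-0 shoot 1 was left out and 8457 when Col-0 shoot 2 was. Scaling moved the direction of the calls as well: 8 were higher and 11 lower as deposited, against 17 and 4 with TMM scaling, 77 and 28 with quantile normalization, and 84 and 53 with a gene span correction. The called genes were ones with Col-0 libraries close to each other, at a median of 0.18 log2 units apart against 0.64 for all tested genes. The excess of lower genes depended on scaling: as deposited, 116 of the genes beyond both were lower and 43 higher (73% lower), with equal library medians 31 lower and 116 higher (21.1%), with TMM scaling 64 and 133 (32.5%), with quantile normalization 101 and 183 (35.6%), and with a gene span correction 55 and 72 (43.3%). Leaving out Col-0 shoot 1 gave 203 lower and 235 higher, and leaving out Col-0 shoot 2 gave 3875 and 146. At the edge of the rule, OSM34 lay just inside (1.015 log2 units above) and AT1G76960 just outside (0.9943), and below, HMGB5 lay just inside (1.00) and MYB94 just outside (0.9951).

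**Figure D2:**
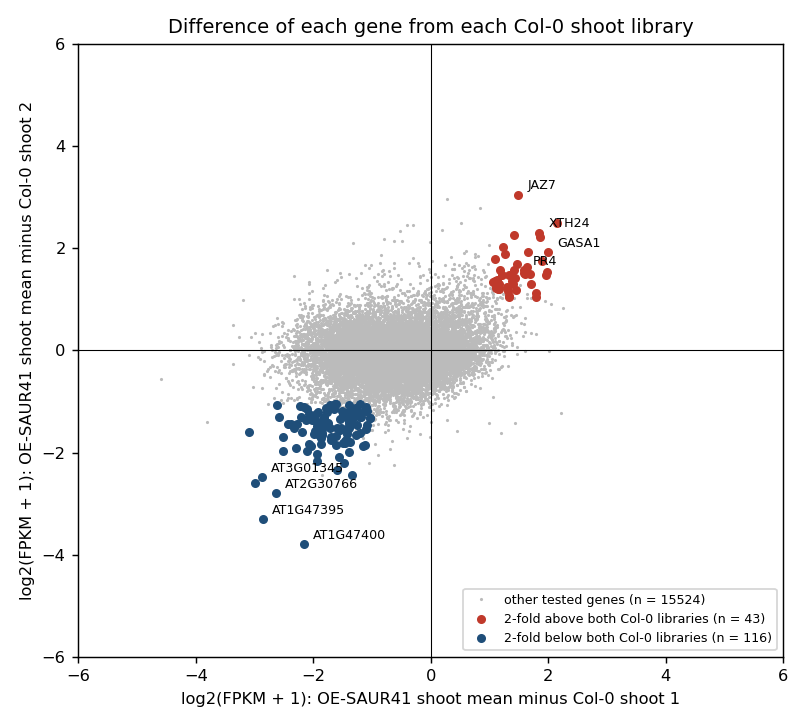
Each point is a tested gene, placed by the OE-SAUR41 shoot mean minus Col-0 shoot 1 (horizontal) and minus Col-0 shoot 2 (vertical), both in log2(FPKM + 1). The 43 genes at least 2-fold above both Col-0 libraries (SAUR41, at 10.78 and 10.14, lies outside the axes) and the 116 at least 2-fold below both are coloured, and the cloud of other genes is shifted to the left, with a median of -0.60 against Col-0 shoot 1.

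Of the 7 genes called higher beside SAUR41, the 2 most abundant encode a small secreted peptide and a wall enzyme. GASA1 (AT1G75750, chromosome 1, 28441526 to 28442429), a gibberellin-regulated cysteine-rich peptide, had 446 and 433 FPKM in OE-SAUR41 shoots and 109 and 115 FPKM in Col-0 shoots. It rose by a log2 fold change of 1.96 ± 0.18 (SE; adjusted p = 0.0327), with libraries of each group nearly level. XTH24 (AT4G30270, chromosome 4, 14819192 to 14820592), which cuts and rejoins xyloglucan in the wall, had 266 and 254 FPKM in OE-SAUR41 and 71.7 and 51.8 FPKM in Col-0. Its log2 fold change was 2.08 ± 0.21 (SE; adjusted p = 0.0334).

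The other genes called higher were 5 of moderate or low level. PR4 (AT3G04720), a hevein-like chitin-binding protein, had 94.8 and 94.1 FPKM in OE-SAUR41 and 31.0 and 31.1 FPKM in Col-0 (log2 fold change 1.58, adjusted p = 0.0384). MLP34 (AT1G70850), a major latex protein-like gene, had 67.5 and 63.7 FPKM in OE-SAUR41 and 15.8 and 21.9 FPKM in Col-0 (1.76, adjusted p = 0.0344). In both genes the groups lay more than 2-fold apart at their nearest libraries. ACT (AT5G61160), an acyltransferase that makes coumaroylagmatine, had 12 and 9.86 FPKM in OE-SAUR41 and 2.3 and 1.56 FPKM in Col-0 (2.03, adjusted p = 0.0455). NIT2 (AT3G44300), a nitrilase, had 9.06 and 8.8 FPKM in OE-SAUR41 and 2.17 and 1.62 FPKM in Col-0 (1.79, adjusted p = 0.0334). AT4G16260 had 8.55 and 9.05 FPKM in OE-SAUR41 and 2.72 and 3.0 FPKM in Col-0 (1.34, adjusted p = 0.0455). With a gene span correction all 8 genes called higher were called again.

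Of the 11 genes called lower, 4 carry a name in the files. CDEF1 (AT4G30140, chromosome 4, 14738387 to 14740676), an esterase that can break down cutin, had 19.5 and 17.6 FPKM in OE-SAUR41 shoots and 76.7 and 60.2 FPKM in Col-0 shoots. It fell by 1.82 on the log2 scale (SE 0.19, adjusted p = 0.0334). PYR1 (AT4G17870, chromosome 4, 9928678 to 9929518), an abscisic acid receptor, had 11 and 8.31 FPKM in OE-SAUR41 and 33.5 and 29.4 FPKM in Col-0. It fell by 1.62 (SE 0.19, adjusted p = 0.0376). RTFL16 (AT3G25717), of the ROTUNDIFOLIA-like family of small polypeptides that limit organ growth when overexpressed, had 8.65 and 9.37 FPKM in OE-SAUR41 and 29.5 and 31.1 FPKM in Col-0, and fell by 1.65 (adjusted p = 0.0334). GDU3 (AT5G57685), a membrane protein of the glutamine dumper family, had 1.75 and 2.65 FPKM in OE-SAUR41 and 9.23 and 9.21 FPKM in Col-0, and fell by 1.69 (adjusted p = 0.0455).

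The remaining 7 carry no name in the files and are given by locus. AT2G02050 had 9.98 and 11.1 FPKM in OE-SAUR41 and 40.4 and 35.6 FPKM in Col-0, and fell by 1.75 (adjusted p = 0.0327). AT1G64370 had 75.1 and 74.1 FPKM in OE-SAUR41 and 197 and 196 FPKM in Col-0 (adjusted p = 0.0455). AT5G20700 had 95.5 and 95.2 FPKM in OE-SAUR41 and 246 and 210 FPKM in Col-0 (adjusted p = 0.0455). AT1G64370 and AT5G20700 were among the more abundant of the called genes, with OE-SAUR41 libraries almost equal to each other. AT5G47060 had 3.16 and 2.79 FPKM in OE-SAUR41 and 11.8 and 12.3 FPKM in Col-0 (adjusted p = 0.0455). AT1G10682, annotated as a non-coding RNA, had 7.25 and 7.63 FPKM in OE-SAUR41 and 23.8 and 34.9 FPKM in Col-0 (adjusted p = 0.0334). AT2G36030, whose locus is shared with another gene and whose value is therefore uncertain, was not listed in either OE-SAUR41 library and had 2.85 and 3.52 FPKM in Col-0 (adjusted p = 0.0334). It was the one called gene that passed the filter through a single group. The last, AT2G30766, is described with the iron deficiency genes. With a gene span correction, 10 of the 11 were called again, AT2G36030 being left out of that fit because of its shared locus. With the 4 shoot libraries alone, none of the 11 was called.

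Several genes with wide gaps missed the threshold. Above both Col-0 libraries, ORF113 (ATMG01220), an open reading frame of the mitochondrial genome, had 8.68 and 8.4 FPKM in OE-SAUR41 and 1.16 and 0.689 FPKM in Col-0 (adjusted p = 0.0814). JAZ7, a repressor of jasmonate signalling, had 12.5 FPKM in both OE-SAUR41 libraries and 3.79 and 0.626 FPKM in Col-0 (adjusted p = 0.267), so the Col-0 libraries differed more from each other than the nearer of them did from OE-SAUR41. AT4G20390 had 8.76 and 6.03 FPKM in OE-SAUR41 and 1.23 and 1.46 FPKM in Col-0 (adjusted p = 0.052). AT4G16563 had 40.9 and 39.2 FPKM in OE-SAUR41 and 13.8 and 11.8 FPKM in Col-0 (adjusted p = 0.0627).

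Below both, AT3G01345 had 2.99 and 2.88 FPKM in OE-SAUR41 and 28.0 and 21.1 FPKM in Col-0 (adjusted p = 0.0589), the widest gap on that side. RL4, a MYB-related gene of the RADIALIS-like family, had 6.48 and 7.57 FPKM in OE-SAUR41 and 29.7 and 31.8 FPKM in Col-0 (adjusted p = 0.0536). RGF9, a secreted peptide of the root meristem growth factor family, had 11.7 and 10.9 FPKM in OE-SAUR41 and 44.2 and 39.3 FPKM in Col-0 (adjusted p = 0.0707). In these genes the libraries of each group lay close together and far from the other group. ATTI3, a trypsin inhibitor, had 5.35 and 3.6 FPKM in OE-SAUR41 and 25.6 and 19.2 FPKM in Col-0 (adjusted p = 0.0814). AT2G45860 was not listed in OE-SAUR41 shoot 1, had 1.44 FPKM in OE-SAUR41 shoot 2, and had 11.5 and 8.5 FPKM in Col-0 (adjusted p = 0.076).

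**Figure D3:**
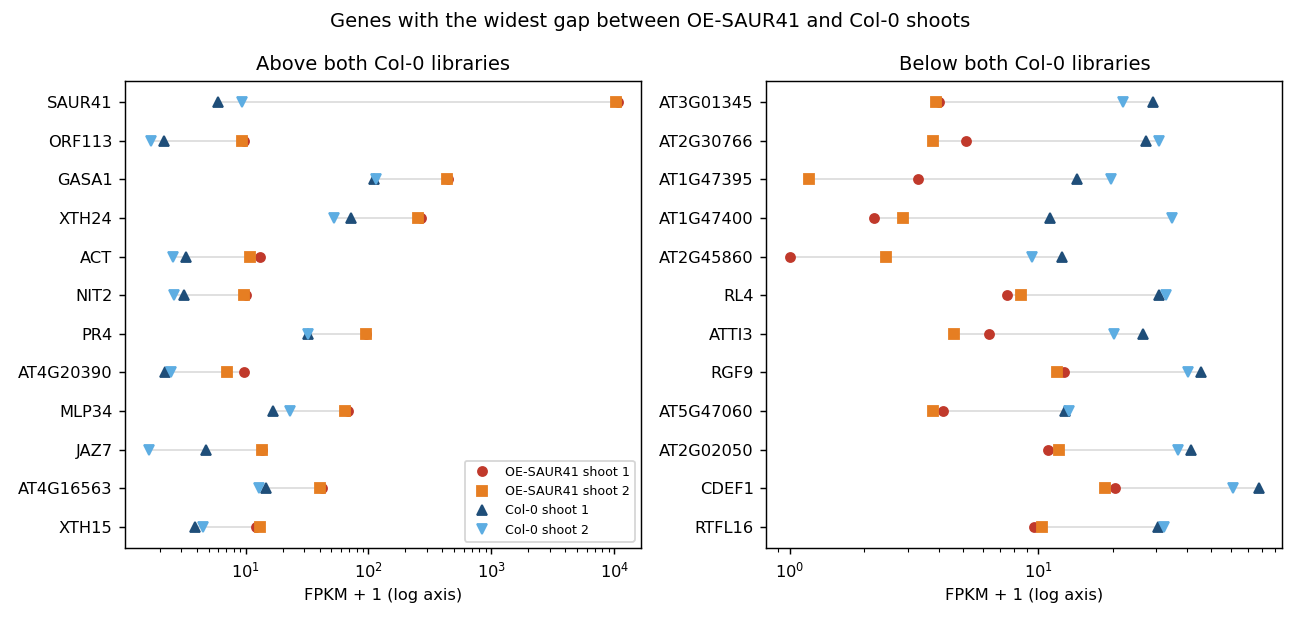
FPKM + 1 (log axis) in each of the 4 shoot libraries for the 12 genes with the widest gap above both Col-0 libraries (left) and the 12 with the widest gap below them (right), among genes that averaged 5 FPKM or more in whichever group was higher. SAUR41, at 10675 and 10248 FPKM in OE-SAUR41, stands apart from the other genes on the left.

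Genes of the iron deficiency response were mostly lower in OE-SAUR41 shoots. Plants short of iron switch on regulators such as the bHLH factors, and genes that chelate, reduce and move the metal, while ferritins store it when it is ample. Of 20 listed members 12 passed the filter, and 10 of these lay below both Col-0 libraries and 2 above, where 33.9% and 8.33% of all tested genes did. The median log2 fold change was -1.1, against -0.34 for all tested genes. It was negative under every scaling tried and with either Col-0 library left out (from -0.63 to -1.14). It was nearly the same against Col-0 shoot 1 (-1.14) and Col-0 shoot 2 (-1.08). Of the members, 1 was called, and 4 were at least 2-fold below both Col-0 libraries. BHLH100, one of the 4, had reached 1 FPKM in Col-0 libraries only, which fixed its direction. Without it 9 of 11 members lay below both and 3 were at least 2-fold below.

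The 3 members with the largest differences carry no name in the files and were entered in the list by locus. AT2G30766 (chromosome 2, 13105770 to 13108863), the called member, had 4.15 and 2.76 FPKM in OE-SAUR41 and 26.2 and 29.6 FPKM in Col-0, and fell by 2.71 on the log2 scale (SE 0.31, adjusted p = 0.0357). AT1G47395 (chromosome 1, 17383034 to 17383408) had 2.29 and 0.197 FPKM in OE-SAUR41 and 13.4 and 18.7 FPKM in Col-0 (adjusted p = 0.084). AT1G47400 (chromosome 1, 17385717 to 17386186), its neighbour, had 1.19 and 1.85 FPKM in OE-SAUR41 and 10.2 and 33.7 FPKM in Col-0 (adjusted p = 0.0933). Without these 3 loci, 7 of 9 members, BHLH100 included, lay below both Col-0 libraries and 2 above, with a median of -0.92.

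Among the named members, BHLH100, one of the bHLH regulators induced by iron shortage, had 0.292 and 0.05 FPKM in OE-SAUR41 and 2.2 and 3.01 FPKM in Col-0 (adjusted p = 0.0727). PYE, a bHLH regulator of iron homeostasis, had 2.74 and 3.69 FPKM in OE-SAUR41 and 7.93 and 8.22 FPKM in Col-0, and FRO3, a ferric reductase, had 5.28 and 4.68 FPKM in OE-SAUR41 and 12.5 and 11.1 FPKM in Col-0. On the log2(FPKM + 1) scale both lay just under 1 log2 unit below the nearer Col-0 library. BTS, a ubiquitin ligase that restrains the response, had 4.94 and 4.62 FPKM in OE-SAUR41 and 22.2 and 5.57 FPKM in Col-0, so its distance rested on Col-0 shoot 1. Nicotianamine synthases, which make an iron chelator, lay on both sides. NAS4 had 11.1 and 10.2 FPKM in OE-SAUR41 and 16.9 and 26.0 FPKM in Col-0, whereas NAS3 had 25.9 and 28.5 FPKM in OE-SAUR41 and 12.2 and 7.14 FPKM in Col-0. NAS3 was the member at least 2-fold above both Col-0 libraries.

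Iron storage genes showed the opposite sign. All 8 listed members were tested, 5 lay above both Col-0 libraries (8.33% of all tested genes did) and 0 below, and the median was 0.33. FER2, one of the 5, had reached 1 FPKM in OE-SAUR41 libraries only. Without it 4 of 7 lay above both, with a median of 0.26. FER1, the ferritin most responsive to iron, had 159 and 142 FPKM in OE-SAUR41 and 89.3 and 40.0 FPKM in Col-0, at a locus shared with another gene (adjusted p = 0.199). FER3 had 73.1 and 76.5 FPKM in OE-SAUR41 and 56.8 and 54.3 FPKM in Col-0. Among these genes limma called 0, with 3 at an unadjusted p under 0.05.

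**Figure D4:**
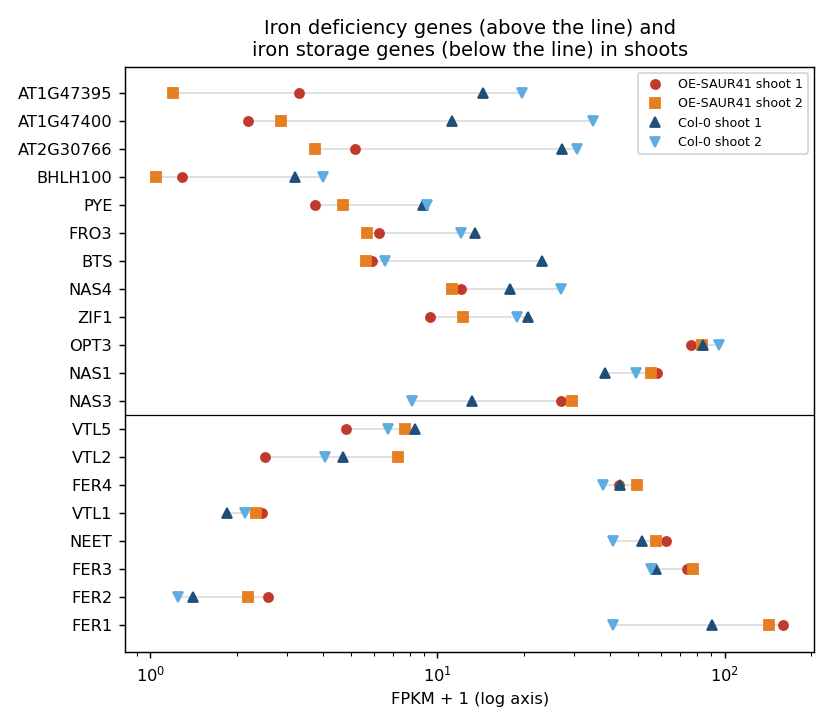
FPKM + 1 (log axis) of the 12 tested iron deficiency genes (above the line) and the 8 iron storage genes (below the line) in the 2 OE-SAUR41 and 2 Col-0 shoot libraries, each group ordered by its log2 fold change. Both OE-SAUR41 libraries lie left of both Col-0 libraries for 10 of the 12 iron deficiency genes and right of them for 5 of the 8 storage genes.

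Among wall genes, XTH genes mostly lay above Col-0. Of 19 tested XTH genes, 13 had a positive log2 fold change. Of the 19, 9 lay above both Col-0 libraries and 2 below, where 8.33% and 33.9% of all tested genes did. The median was 0.38. That median was positive under every scaling tried and against each Col-0 library (0.16 and 0.86). XTH24 was the called member. XTH15 had 11.1 and 12.1 FPKM in OE-SAUR41 and 2.91 and 3.48 FPKM in Col-0 (adjusted p = 0.0616), and XTH7 had 542 and 538 FPKM in OE-SAUR41 and 206 and 297 FPKM in Col-0. In XTH23, with 18.6 and 19.9 FPKM in OE-SAUR41 and 10.3 and 1.93 FPKM in Col-0, and in XTH18, with 15.6 and 16.3 FPKM in OE-SAUR41 and 13.0 and 1.17 FPKM in Col-0, the Col-0 libraries lay more than 4-fold apart on the FPKM scale.

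Alpha-expansins, which loosen walls at acid pH, did not share that sign. The log2 fold change was negative for 12 of 13 tested members, 8 lay below both Col-0 libraries and 0 above, and the median was -0.44, close to that of all tested genes, of which 33.9% lay below both. The signs depended on scaling, with 7 negative and 6 positive after TMM scaling and 8 negative and 5 positive after quantile normalization. EXPA16 had 3.29 and 3.26 FPKM in OE-SAUR41 and 10.2 and 16.0 FPKM in Col-0 (adjusted p = 0.11), the member at least 2-fold below both. EXPA1 had 59.1 and 55.1 FPKM in OE-SAUR41 and 105 and 128 FPKM in Col-0. Of 7 tested GASA peptide genes, 4 lay above both Col-0 libraries and 2 below, where 8.33% and 33.9% of all tested genes did. GASA5, one of the 4, had reached 1 FPKM in OE-SAUR41 libraries only, which fixed its direction. Without it 3 of 6 lay above both. GASA1 was called, and GASA6 had 94.0 and 103 FPKM in OE-SAUR41 and 159 and 196 FPKM in Col-0.

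Aquaporins, the channels that pass water through the plasma membrane and the vacuole membrane, were the most uniform of the positive lists. Of 18 tested members 17 had a positive log2 fold change. Of the 18, 14 lay above both Col-0 libraries and 1 below, where 8.33% and 33.9% of all tested genes did. TIP4;1, one of the 14, had reached 1 FPKM in OE-SAUR41 libraries only. Without it 13 of 17 lay above both. The median over all 18 was 0.51. It stayed positive under every scaling tried and with either Col-0 library left out (0.22 to 0.92). Limma called 0 of the 18, with 8 at an unadjusted p under 0.05, and 0 were 2-fold beyond both Col-0 libraries. TIP2;2 had 255 and 244 FPKM in OE-SAUR41 and 81.2 and 162 FPKM in Col-0 (adjusted p = 0.206). PIP2;1 had 1121 and 1115 FPKM in OE-SAUR41 and 528 and 785 FPKM in Col-0, and PIP1;1 had 233 and 222 FPKM in OE-SAUR41 and 108 and 140 FPKM in Col-0. In all 3 genes both OE-SAUR41 libraries were above both Col-0 libraries, and Col-0 shoot 2 was the nearer.

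The pumps and phosphatases through which SAUR proteins are known to act could not be placed. Of 5 tested proton pump genes, 2 lay below both Col-0 libraries and 0 above, where 33.9% and 8.33% of all tested genes did. AHA5, one of the 2, had reached 1 FPKM in Col-0 libraries only, which fixed its direction. Without it 1 of 4 lay below both. Over all 5 the median was -1.51 against Col-0 shoot 1 and -0.07 against Col-0 shoot 2. AHA1 had 116 and 115 FPKM in OE-SAUR41 and 194 and 114 FPKM in Col-0, and AHA2 had 48.9 and 55.0 FPKM in OE-SAUR41 and 101 and 54.5 FPKM in Col-0. Both were at the level of Col-0 shoot 2. These are long genes, with a median span of 5694 bp. The 9 D-clade PP2C phosphatase genes behaved alike, with medians of -0.82 against Col-0 shoot 1 and 0.04 against Col-0 shoot 2. Of these 9, 1 lay below both Col-0 libraries and 0 above, against the same 33.9% and 8.33% of all tested genes.

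Other SAUR genes were lower in most cases. Of 76 listed members 39 passed the filter, and 34 of these had a negative log2 fold change. Of the 39, 27 lay below both Col-0 libraries and 1 above, where 33.9% and 8.33% of all tested genes did. At least 2-fold below both were 6, against 0.74% of all tested genes. Members were matched by name or synonym, and PUB16 (AT5G01830), counted among the 39 and the 34, carries another name. Its log2 fold change was -0.095, and its groups overlapped. Of the 39, however, 9 had reached 1 FPKM in Col-0 libraries only, so their direction was fixed by the filter, and 3 of the 6 were among them. Of the 30 that remained, 18 lay below both Col-0 libraries and 1 above, 3 at least 2-fold below, and their median was -0.69, against -0.33 for all genes selected in the same way. Over all 39 the median was -0.89, or -0.55 relative to all tested genes, and relative to all tested genes this became -0.10 when Col-0 shoot 2 was left out and -0.98 when Col-0 shoot 1 was. Limma called 0 of them, with 24 at an unadjusted p under 0.05. SAUR16 had 9.5 and 6.59 FPKM in OE-SAUR41 and 25.9 and 44.1 FPKM in Col-0 (adjusted p = 0.107), and SAUR32 had 0.737 and 1.9 FPKM in OE-SAUR41 and 7.11 and 5.85 FPKM in Col-0. SAUR4, one of those that passed through Col-0 only, was not listed in either OE-SAUR41 library and had 3.02 and 1.42 FPKM in Col-0. SAUR78, with 68.7 and 67.6 FPKM in OE-SAUR41 and 50.1 and 65.8 FPKM in Col-0, was the member above both. SAUR genes are short, with a median span of 646 bp, and several are close paralogs. No source used here states how fragments matching several genes were shared. The list of Aux/IAA and GH3 auxin response genes also held ARF5 and ARF7, which are auxin response factors. Its median was -0.34, equal to that of all tested genes. Of its 28 tested members 13 lay below both Col-0 libraries and 1 above, where 33.9% and 8.33% of all tested genes did. IAA28, one of the 13, had reached 1 FPKM in Col-0 libraries only. Without it 12 of 27 lay below both.

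Jasmonate genes stood above Col-0 shoot 2 more than above Col-0 shoot 1. Of 15 tested members 13 had a positive log2 fold change. Of the 15, 8 lay above both Col-0 libraries and 1 below, where 8.33% and 33.9% of all tested genes did. The median was 0.53, with 0.19 against Col-0 shoot 1 and 1.1 against Col-0 shoot 2. VSP2, a vegetative storage protein induced by jasmonate, had 156 and 142 FPKM in OE-SAUR41 and 37.5 and 53.0 FPKM in Col-0 (adjusted p = 0.206). JAZ1 had 80.1 and 78.0 FPKM in OE-SAUR41 and 69.2 and 14.7 FPKM in Col-0, and JAZ10 had 13.1 and 10.9 FPKM in OE-SAUR41 and 7.72 and 2.47 FPKM in Col-0. For 10 of the 15 members the Col-0 libraries were at least 2-fold apart, as for JAZ1. Limma called 0 of them, with 4 at an unadjusted p under 0.05.

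Among 14 tested salicylate and pathogen response genes, PR4 was called higher. Of the 14, 2 lay above both Col-0 libraries and 1 below, where 8.33% and 33.9% of all tested genes did. The member below both was PR5, a thaumatin-like protein, with 5.33 and 5.2 FPKM in OE-SAUR41 and 9.49 and 14.7 FPKM in Col-0. WRKY33, a regulator of defence against fungi, had 37.8 and 33.7 FPKM in OE-SAUR41 and 91.2 and 7.5 FPKM in Col-0, so that both OE-SAUR41 libraries fell between the Col-0 libraries. Of 4 tested nitrilases, 2 lay above both Col-0 libraries and 1 below, where 8.33% and 33.9% of all tested genes did. NIT2 was called. NIT1, the most abundant of the 4 and also above both, had 840 and 851 FPKM in OE-SAUR41 and 746 and 730 FPKM in Col-0.

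Transcripts of the chloroplast genome mostly lay below Col-0. Of 66 tested members, 60 were negative in log2 fold change. Of the 66, 42 lay below both Col-0 libraries and 0 above, where 33.9% and 8.33% of all tested genes did. At least 2-fold below both were 8, against 0.74% of all tested genes. Some genes, such as RPS7-A and rpl2-B, were listed at repeated loci with nearly the same values, so the counts hold them more than once. Both rpl2-B loci were among the 8. Without 4 members that had reached 1 FPKM in Col-0 libraries only, 38 of 62 lay below both and 7 were at least 2-fold below. The median over all 66 was -1.14. It was negative under every scaling tried and with either Col-0 library left out (-0.65 to -1.34). NDHK, a subunit of the plastid NADH dehydrogenase-like complex, had 1.72 and 1.53 FPKM in OE-SAUR41 and 8.47 and 6.47 FPKM in Col-0 (adjusted p = 0.112). ATPA, the alpha subunit of the chloroplast ATP synthase, had 8.63 and 6.8 FPKM in OE-SAUR41 and 38.8 and 25.4 FPKM in Col-0 (adjusted p = 0.308). Limma called 0 of the 66, with 12 at an unadjusted p under 0.05. The summed level of all members did not follow: it was 13103 and 12952 FPKM in OE-SAUR41 and 16617 and 11687 FPKM in Col-0, and ribosomal RNA genes, present as repeated copies, made up most of it. RRN23S.1 had 3175 and 3142 FPKM in OE-SAUR41 and 3466 and 2441 FPKM in Col-0. No source used here states whether RNA was selected by its poly(A) tail. In roots the replicate libraries differed in the same sum, with 411 and 1011 FPKM in OE-SAUR41 and 263 and 1388 FPKM in Col-0.

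Nuclear photosynthesis genes did not follow the plastid genes. Of 40 tested, 32 had a positive log2 fold change. Of the 40, 8 lay above both Col-0 libraries and 3 below, where 8.33% and 33.9% of all tested genes did. The median was 0.23. Its sign depended on the Col-0 library, with 0.69 against Col-0 shoot 1 and -0.25 against Col-0 shoot 2, and on scaling, with -0.05 after quantile normalization. LHCB2.3, a light-harvesting protein of photosystem II, had 872 and 859 FPKM in OE-SAUR41 and 370 and 649 FPKM in Col-0 (adjusted p = 0.274). Mitochondrial genome transcripts had a median of 0.11. Of 36 tested members 12 lay above both Col-0 libraries and 6 below, against the same 8.33% and 33.9% of all tested genes. Of the 36, 3 had reached 1 FPKM in OE-SAUR41 libraries only and 5 in Col-0 libraries only, and of the 28 that remained 9 lay above and 1 below.

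Circadian clock genes were further from Col-0 shoot 1 than from Col-0 shoot 2, as were all tested genes by their medians. Of 17 tested, 16 had a negative log2 fold change and 8 lay below both Col-0 libraries, where 33.9% of all tested genes did. Limma called 0 of them, with 6 at an unadjusted p under 0.05. The medians were -1.04 against Col-0 shoot 1 and -0.28 against Col-0 shoot 2, where those of all tested genes were -0.60 and -0.05. ELF4, an evening gene of the clock, had 30 and 36.5 FPKM in OE-SAUR41 and 69.0 and 99.8 FPKM in Col-0 (adjusted p = 0.0814), and LUX, its partner in the evening complex, had 26.5 and 26.1 FPKM in OE-SAUR41 and 42.7 and 42.5 FPKM in Col-0. PRR7 overlapped, with 2.61 and 2.09 FPKM in OE-SAUR41 and 15.5 and 1.73 FPKM in Col-0. No source used here states the time of day of harvest.

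Abscisic acid and cold response genes split, with 5 of 23 above both Col-0 libraries and 8 below, where 8.33% and 33.9% of all tested genes did. The counts that follow are to be read against the same shares. RAB18, a dehydrin induced by abscisic acid, had 20.9 and 21.4 FPKM in OE-SAUR41 and 9.09 and 7.47 FPKM in Col-0 (adjusted p = 0.171), and NCED3, which makes the rate-limiting step of abscisic acid synthesis, had 53.2 and 52.0 FPKM in OE-SAUR41 and 31.8 and 19.6 FPKM in Col-0. COR6.6 had 331 and 307 FPKM in OE-SAUR41 and 502 and 1093 FPKM in Col-0. PYR1, the receptor called lower, was not in this list. The brassinosteroid list had 1 of 11 tested members above both Col-0 libraries and 3 below. For gibberellin it was 3 and 3 of 14, for PIF factors and shade response 2 and 7 of 14, for calcium sensors and transporters 0 and 7 of 19, and for sodium and potassium transport 1 and 1 of 5. Ethylene had 3 and 2 of 10, heat shock proteins 1 and 1 of 7, flavonoid and anthocyanin synthesis 1 and 3 of 9, glucosinolate synthesis 6 and 4 of 22, and mitotic cell cycle 0 and 7 of 15. In the brassinosteroid and heat shock lists 1 member each had reached 1 FPKM in Col-0 libraries only. In the PIF and ethylene lists 1 member each had done so in OE-SAUR41 libraries only. Without these members the counts were 1 and 2 of 10 for brassinosteroid and 1 and 0 of 6 for heat shock proteins. They were 1 and 7 of 13 for PIF factors and shade response and 2 and 2 of 9 for ethylene. None of these 10 lists held a called gene, and the medians of 8 of them changed sign with scaling or with the Col-0 library used, the exceptions being PIF factors and shade response (-0.49) and mitotic cell cycle (-0.38).

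**Figure D5:**
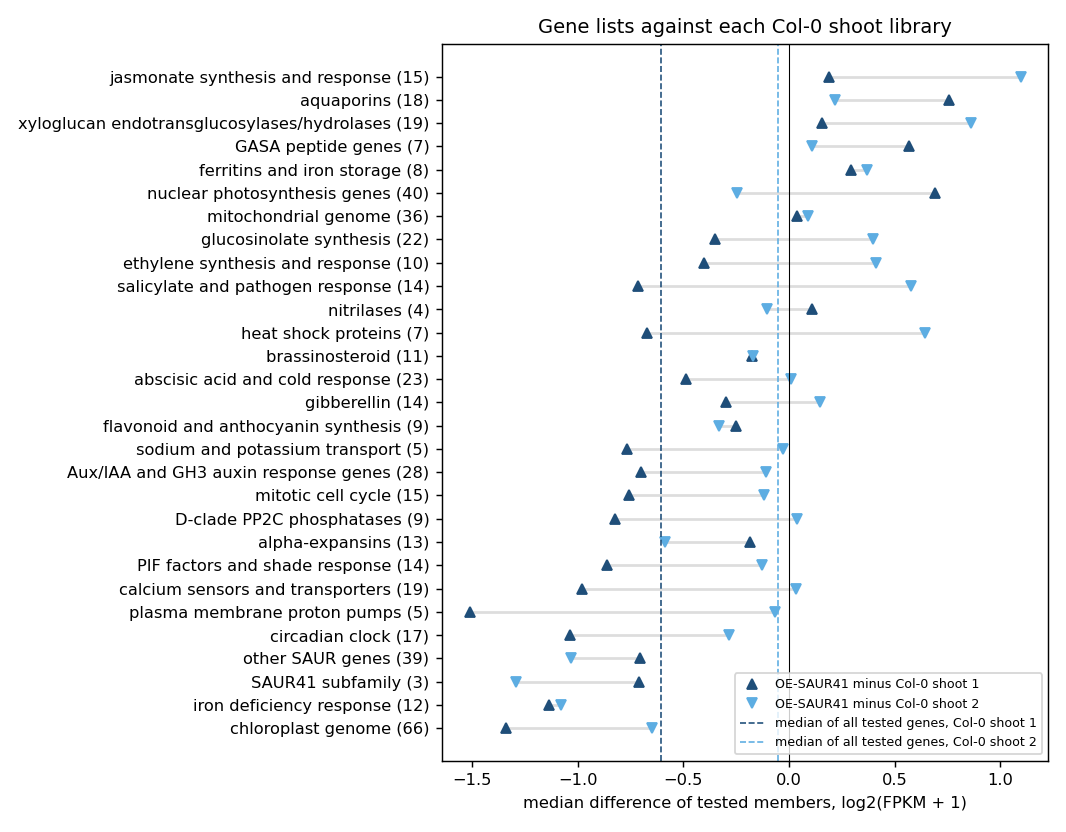
Median difference of the tested members of each gene list (number in brackets), in log2(FPKM + 1), of the OE-SAUR41 shoot mean from Col-0 shoot 1 and from Col-0 shoot 2, with the medians of all tested genes (-0.60 and -0.05) as dashed lines. For iron deficiency genes the medians against Col-0 shoot 1 and Col-0 shoot 2 nearly coincide (-1.14 and -1.08), while for proton pumps they lie far apart (-1.51 and -0.07).

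Genes that are mainly expressed in roots were frequent among those above both Col-0 libraries. A gene was counted as root-high where its mean over the 4 root libraries was at least 10 times that over the 4 shoot libraries, a definition added after the values were seen. Root-high genes made up 13 of the 43 genes 2-fold above both Col-0 libraries (30.2%) and 4 of the 116 below (3.45%), against 3.042% of all tested genes. Of the 43, 5 had reached 1 FPKM in OE-SAUR41 libraries only, and of the 116, 27 in Col-0 libraries only. The filter fixed the direction of these genes, FACT among the 5, and the shares still hold them. Root-high genes above both included MLP34, NIT2 and AT4G16260 among the calls, and PER22 and PER32, which are class III peroxidases. CYP86A1 and FACT, which make suberin monomers or related wax-like esters, were also among them. The 4 below included AT1G10682 and GDU3, both called lower. PER32 had 52.2 and 53.8 FPKM in OE-SAUR41 shoots and 24.4 and 20.1 FPKM in Col-0 shoots, and CYP86A1 had 5.67 and 7.42 FPKM in OE-SAUR41 and 1.46 and 1.65 FPKM in Col-0. These values are levels in shoots, low beside those in roots.

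The sum of defining root markers did not separate the shoot groups. The 12 root tissue markers summed to 9.09 and 10.8 FPKM in OE-SAUR41 shoots and to 9.02 and 11.4 FPKM in Col-0 shoots, against 377 to 421 FPKM in roots. EXPA7 and EXPA18, of root hair cells, were at or below 0.0757 FPKM in all 4 shoot libraries. CASP1, of the root endodermis, had 4.35 and 7.64 FPKM in OE-SAUR41 shoots and 3.65 and 7.1 FPKM in Col-0 shoots. Its locus is shared with another gene, so its value is uncertain. Of the 12 markers 3 passed the filter. Of these, 1 lay below both Col-0 libraries and 0 above, where 33.9% and 8.33% of all tested genes did. That member, NRT2.1, had 1.34 and 0.92 FPKM in OE-SAUR41 shoots and 1.82 and 1.54 FPKM in Col-0 shoots. Without the root-high genes 10 genes were called, and 30 were 2-fold above both Col-0 libraries and 112 below. The 5 markers of shoot meristem and epidermis summed to 529 and 534 FPKM in OE-SAUR41 and to 514 and 764 FPKM in Col-0. Seed storage markers summed to at most 2.13 FPKM in any shoot library. In bulk shoots, fewer cells of a type and less RNA per cell cannot be told apart.

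In roots, where OE-SAUR41 and Col-0 were compared in the same fit, few of the shoot differences were as wide. Of the 43 genes 2-fold above both Col-0 libraries in shoots, 8 (18.6%) also had OE-SAUR41 root libraries above both Col-0 root libraries, against 11.34% of all tested genes, and SAUR41 was the one gene 2-fold above in both organs. Its root values were 7996 and 4670 FPKM in OE-SAUR41 and 4.64 and 7.46 FPKM in Col-0. Of the 116 genes below, 42 (36.21%) did not overlap in the same direction in roots, against 19.64% of all tested genes. At least 2-fold below in both organs were AT1G47395, AT1G47400, AT3G01345 and AT5G63690. AT3G01345 had 1.18 and 1.2 FPKM in OE-SAUR41 roots and 28.3 and 13.6 FPKM in Col-0 roots, and AT1G47395 had 2.41 and 1.79 FPKM in OE-SAUR41 roots and 12.1 and 20.9 FPKM in Col-0 roots.

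The difference between the shoot and the root effect was tested as an interaction in the same limma fit, and 0 genes (0%) were called, with 779 at an unadjusted p under 0.05. Among genes with a more positive effect in shoots the smallest p-values belonged to NIT2, MLP34 and PR4. NIT2 had 177 and 214 FPKM in OE-SAUR41 roots and 231 and 198 FPKM in Col-0 roots, and its interaction was 1.92 ± 0.28 log2 units (SE; adjusted p = 0.518). Among genes with a more negative effect in shoots they belonged to AT2G02050, CDEF1 and PYR1. AT2G02050 had 103 and 109 FPKM in OE-SAUR41 roots and 110 and 99.1 FPKM in Col-0 roots, with an interaction of -1.78 ± 0.23 (SE; adjusted p = 0.518). GASA1, called in shoots, had 380 and 357 FPKM in OE-SAUR41 roots and 350 and 257 FPKM in Col-0 roots. A different size of effect between the organs is thus not shown for any of these genes at the adjusted threshold.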

How the data were processed

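Per the labels' protocols, RNA of seedling roots and shoot parts was taken up in TRIzol and sequenced by Illumina HiSeq. The deposited values are FPKM, computed by the authors, 1 file per library, per the file headers. The genome build was TAIR10, per the submitters' processing notes. No source used here gives the aligner, quantifier or strand setting. The files list values above 0. Depth is unknown, and counting error could not be bounded.

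Of 25404 genes listed in any library, 22491 were listed in a shoot library, and 25139 matched the RefSeq gene table (TAIR10.1), which supplied names alone. A locus is shared with another gene for 3635 genes (2522 of those tested), whose values are uncertain. AT2G01010, AT3G41768 and LHCB1.3 were left out as failed estimates: these 3 genes exceeded 100 FPKM in 1 library of a group and were unlisted in its replicate.

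Values were analysed as log2(FPKM + 1) with limma 3.58.1 (R 4.3.3; lmFit, contrasts.fit, eBayes with trend), all 8 libraries in 1 fit with 4 group means, 4 residual and 3.83 prior degrees of freedom, and Benjamini-Hochberg adjustment over the 15683 tested genes. The fit was tested on simulated data in which all libraries had the same spread and no trend with gene span. That test does not cover the uneven spread of the Col-0 shoot libraries. With 2 libraries a group the exact permutation test has a smallest p of 0.333, so it was not used. Summaries were made in Python 3.11.15 (numpy 2.4.6, pandas 2.3.3) and drawn in matplotlib 3.10.9.

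The genes named are the SAUR41 subfamily, every called gene, the 12 widest gaps above and the 12 below both Col-0 libraries among genes averaging 5 FPKM or more in the higher group, up to 4 members per list that were 2-fold beyond both or else up to 2 with the largest change, and the 3 smallest interaction p-values each way. Other list members named for contrast were chosen after their values were seen. The comparison and the 33 gene lists were chosen with earlier results of these data known, and the counts on them are descriptions. A list of nuclear complex I subunits, defined by gene description, matched 0 genes because no descriptions were at hand.

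Alternatives were pseudocounts of 0.1 and 5, the filter dropped or raised to 5 FPKM, TMM scaling on FPKM without count weights, quantile normalization, equal library medians, removal of a lowess trend (span 0.3) on gene span, a replicate block, library weights, the shoot libraries alone, a least log2 fold change of 1, gaps of 1.5-fold and 4-fold, and leaving out each library. Leaving out root-high genes or genes with shared loci was added after seeing the data.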

Additional observations from a re-analysis of the deposited data

Results flagged for a closer look

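For 6 of the named genes both OE-SAUR41 libraries lay on one side of both Col-0 libraries in shoots and on the other side in roots. In none of them did the limma interaction pass the adjusted threshold, so a difference between the organs is not shown.

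SAUR16 had an interaction of -2.18 log2 units (adjusted p = 0.788), lower in OE-SAUR41 shoots (log2 fold change -1.97) and higher in OE-SAUR41 roots (0.22), where its values were 0.365 and 0.703 FPKM in OE-SAUR41 and 0.326 and 0.299 FPKM in Col-0. SAUR4 had an interaction of -2.46 (adjusted p = 0.659), with 4.84 and 8.29 FPKM in OE-SAUR41 roots and 3.4 and 2.95 FPKM in Col-0 roots. CML23, a calmodulin-like calcium sensor, had an interaction of -1.73 (adjusted p = 0.788). Its shoot values were 4.46 and 5.5 FPKM in OE-SAUR41 and 17.7 and 9.67 FPKM in Col-0. In the root libraries CML23 had 55.1 and 42.0 FPKM in OE-SAUR41 roots and 39.4 and 29.4 FPKM in Col-0 roots. LHCB2.2 had an interaction of 1.31 (adjusted p = 0.79), and its root values were 1.15 and 2.23 FPKM in OE-SAUR41 and 2.26 and 4.14 FPKM in Col-0.

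GSTF2 had an interaction of 1.76 (adjusted p = 0.518), with 151 and 219 FPKM in OE-SAUR41 roots and 238 and 223 FPKM in Col-0 roots. FACT had an interaction of 1.54 (adjusted p = 0.722), with 50.6 and 55.2 FPKM in OE-SAUR41 roots and 71.1 and 60.6 FPKM in Col-0 roots. In shoots FACT had reached 1 FPKM in OE-SAUR41 libraries only.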

How the results depend on the processing

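SAUR41 was called under every alternative, and the other calls were not stable. The 19 calls became 31 with a pseudocount of 0.1, 2 without a filter, 69 with a filter at 5 FPKM, 105 with quantile normalization, 137 with the gene span correction, 10 without root-high genes, and 1 with library weights or with the shoot libraries alone. With the replicate block 1 gene was called. The labels do not say that same-numbered libraries share a culture or day. The deviations of same-numbered libraries correlated at -0.01 in shoots and 0.13 in roots, and 2 libraries a group are too few to decide the pairing from the data, so the numbers were not used as pairs. Leaving out 1 library gave 1 to 8457 calls for the shoot comparison and 0 to 6057 for the interaction. The interaction counts above 0 were 10 (Col-0 shoot 1 left out) and 6057 (Col-0 shoot 2 left out). Where 1 library remained in a group, its spread was taken from the other groups.

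The 43 genes at least 2-fold above both Col-0 libraries and the 116 below became 89 and 303 with a pseudocount of 0.1, 15 and 28 with a pseudocount of 5, 159 and 617 at 1.5-fold, and 2 and 3 at 4-fold. Above both Col-0 libraries there were 183 with quantile normalization, where the count below was 101. The counts above and below were 133 and 64 with TMM scaling, 72 and 55 with the gene span correction, and 116 and 31 with equal library medians. Leaving out 1 shoot library gave 73 to 235 above and 203 to 3875 below. The cause of these shifts was not tested, beyond the wider threshold or smaller set of libraries that some alternatives set by construction.

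Of the single genes named, the log2 fold change changed sign with the gene span correction for NHX2 (0.0843), ATML1 (0.1009), AHA1 (0.3019) and AHA2 (0.1235), with TMM scaling for AHA1 (0.0457), and with quantile normalization for RRN23S.1 (-0.2926). Over the fits that leave out 1 library it ranged from -1.2625 to 0.0332 for AT3G17090, positive without Col-0 shoot 1, and from -0.2527 to 0.5490 for CASP1, negative without Col-0 shoot 1 and without OE-SAUR41 shoot 2. The ranges were -0.7373 to 0.0184 for AHA1 and -2.3030 to 0.2890 for PRR7, both positive without Col-0 shoot 1, and -1.3296 to 2.1095 for WRKY33 and -0.1340 to 0.3718 for RRN23S.1, both negative without Col-0 shoot 2. None of these was called in the fit as reported. Unknown depth limits statements on low genes.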

Other observations

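Other genes at least 2-fold beyond both Col-0 shoot libraries, chosen here after their values were seen and called by limma in no case, included the following 5. AZI1 (AT4G12470), a lipid transfer protein-like gene of systemic immunity, had 785 and 778 FPKM in OE-SAUR41 and 351 and 340 FPKM in Col-0 (adjusted p = 0.183). EXL2 (AT5G64260), an EXORDIUM-like wall protein, had 260 and 240 FPKM in OE-SAUR41 and 107 and 89.7 FPKM in Col-0 (adjusted p = 0.061), and its relative EXL4 (AT5G09440) had 104 and 117 FPKM in OE-SAUR41 and 31.0 and 50.1 FPKM in Col-0 (adjusted p = 0.125). GSTF2 (AT4G02520), a glutathione transferase, had 166 and 161 FPKM in OE-SAUR41 and 59.7 and 60.7 FPKM in Col-0 (adjusted p = 0.0589). TDT (AT5G47560), the vacuolar malate transporter, had 48.1 and 44.4 FPKM in OE-SAUR41 and 18.2 and 19.1 FPKM in Col-0 (adjusted p = 0.0611).

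Below both Col-0 libraries were transcription factor genes, also chosen after their values were seen and called by limma in no case. RAV2 (AT1G68840) had 42.3 and 38.6 FPKM in OE-SAUR41 and 108 and 86.0 FPKM in Col-0 (adjusted p = 0.114), and TEM1 (AT1G25560), its relative and a repressor of flowering, had 16.8 and 13.9 FPKM in OE-SAUR41 and 37.6 and 36.4 FPKM in Col-0 (adjusted p = 0.183). AS1 (AT2G37630), a MYB factor of leaf patterning, had 9.4 and 9.26 FPKM in OE-SAUR41 and 31.4 and 21.0 FPKM in Col-0 (adjusted p = 0.112). BZIP34 (AT2G42380) had 4.77 and 5.5 FPKM in OE-SAUR41 and 27.4 and 14.0 FPKM in Col-0, and its close relative BZIP61 (AT3G58120) had 9.97 and 8.25 FPKM in OE-SAUR41 and 30.6 and 21.4 FPKM in Col-0.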
